A study of Homo sapiens with 6 samples.

Results

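The EEF1A1 pseudogenes were the 49 genes, of 60612 in the tables, whose GENCODE symbol is EEF1A1P followed by a number. The family was chosen by its name, but with earlier results of the same contrast known, namely that pseudogenes of EEF1A1 were lower after SNORA28 overexpression. The levels and fold changes between the groups are therefore given as a description. Members also entered the limma fit over all genes, and their calls there are counted but are no independent evidence. Of the 49, 8 had a 6-library mean of 1 FPKM or more, 17 lay between 0 and 1 FPKM, and 24 were listed at 0 in every library. FPKM counts fragments per unit of transcript length and of sequencing output, so it is a level per length, and genes can be set side by side on it.

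The cells were HCT116, an established human colorectal carcinoma line. In 3 libraries they were infected with a control lentivirus (LV-NC), and in the other 3 with a lentivirus carrying SNORA28 (LV-SNORA28), an H/ACA box small nucleolar RNA. The series asked which genes respond to SNORA28 overexpression. Poly(A) RNA was sequenced as stranded 150-base read pairs. Per the study's methods, cells were collected at a single time after infection, and nothing in the labels says whether the libraries came from separate infections, so the spread between them may be technical. SNORA28 itself ranged from 0 to 0.92 FPKM with the control virus and from 13.66 to 15.2 FPKM with LV-SNORA28. The share of mitochondrially encoded genes in the summed FPKM ran from 42.7% to 47.7% for LV-NC and from 35.9% to 38.3% for LV-SNORA28. Of 6 epithelial markers, EPCAM, CDH1, KRT8, KRT18 and KRT19 were at 9.65 FPKM or above in all 6 libraries, and VIL1 was at 0.04 FPKM or below. Of 5 markers of other lineages, COL1A1 and DES lay between 1.42 and 4.46 FPKM, while PTPRC, PECAM1 and ALB were at 0.22 FPKM or below. Read totals were not given, so the depth behind each value is unknown.

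EEF1A1 encodes the elongation factor eEF1A1, the GTP-binding protein that carries aminoacyl-tRNA to the ribosome, and its mRNA is among the most abundant of a growing cell. Abundant mRNAs leave processed pseudogenes: the mRNA is copied into DNA by the LINE-1 reverse transcriptase and inserted elsewhere in the genome, without introns or its own promoter and often with a poly(A) tract at its end. Most such copies decay by mutation, and a copy that is still close to its parent cannot be fully separated from it by short reads. The family is called processed, but GENCODE annotated 44 members as processed, 1 as transcribed processed, 3 as unprocessed and 1 as transcribed unprocessed pseudogenes. The 4 annotated as unprocessed or transcribed unprocessed were EEF1A1P31, EEF1A1P32, EEF1A1P48 and EEF1A1P49, and none of them was above 0 FPKM. The members lay on 21 chromosomes.

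The sequences of the 8 members at or above 1 FPKM are shown where they differed most from the parent. Coordinates are GRCh38 (hg38), and positions in the coding sequence are counted from 1 at the A of the EEF1A1 start codon. EEF1A1 lies at chr6:73489308-73525587 on the minus strand, and its coding sequence has 1389 bases in 7 coding exons. The window below covers coding bases 26 to 100, the 75 bases with the most positions at which any of the 8 differed, 20 in all. Each line runs 5′ to 3′ on the sense strand, and capitals mark bases that differ from EEF1A1.
EEF1A1: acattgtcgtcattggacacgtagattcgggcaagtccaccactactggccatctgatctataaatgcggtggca
EEF1A1P5 (chr9:133019511-133019585, plus strand): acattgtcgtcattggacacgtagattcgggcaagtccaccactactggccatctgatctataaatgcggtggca
EEF1A1P6 (chr7:22511900-22511974, minus strand): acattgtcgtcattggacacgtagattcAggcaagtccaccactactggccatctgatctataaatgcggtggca
EEF1A1P13 (chr5:14653227-14653301, minus strand): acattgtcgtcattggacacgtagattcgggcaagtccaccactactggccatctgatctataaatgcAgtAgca
EEF1A1P19 (chr5:43496355-43496429, minus strand): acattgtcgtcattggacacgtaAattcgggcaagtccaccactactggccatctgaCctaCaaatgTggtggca
EEF1A1P16 (chr12:16990695-16990769, plus strand): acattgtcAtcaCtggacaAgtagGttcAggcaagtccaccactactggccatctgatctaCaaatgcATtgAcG
EEF1A1P12 (chr2:106698577-106698651, minus strand): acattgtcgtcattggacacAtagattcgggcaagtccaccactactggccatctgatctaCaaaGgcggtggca
EEF1A1P11 (chr1:96446955-96447029, plus strand): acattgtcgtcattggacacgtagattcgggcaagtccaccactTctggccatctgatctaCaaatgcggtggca
EEF1A1P9 (chr4:105484717-105484791, plus strand): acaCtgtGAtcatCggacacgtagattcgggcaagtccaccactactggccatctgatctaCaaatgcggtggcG
In this stretch EEF1A1P5 was identical to the parent, EEF1A1P6 differed at 1 base, and EEF1A1P16 differed at 10. A read confined to these bases would place EEF1A1P16 apart from EEF1A1 but would not separate EEF1A1P5.

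Over the whole coding sequence the 8 members ran from near-perfect to clearly diverged copies. EEF1A1P5 (chr9:133019486-133020874) was 99.7% identical to EEF1A1, with 4 substitutions in 1389 bases and an open reading frame of all 462 codons. It was the 1 member of 49 with a frame of that length. EEF1A1P6 (chr7:22510616-22511999) was 99.5% identical, with 7 substitutions and a longest frame of 187 codons. EEF1A1P13 (chr5:14651941-14653329) stood at 98.1% with 26 substitutions and its longest frame was 92 codons. EEF1A1P12 (chr2:106697331-106698676), EEF1A1P11 (chr1:96446930-96448318), EEF1A1P9 (chr4:105484698-105486080) and EEF1A1P19 (chr5:43495073-43496454) lay between 97.0% and 97.5%. EEF1A1P16 (chr12:16990670-16992083) was the most diverged of the 8, at 92.7% with 100 substitutions. The intact frame of EEF1A1P5 is a property of its sequence, and whether it is translated was not measured.

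The substitutions were not spread evenly over kinds of base. Of the 290 substitutions in the 8 members, 226 (77.9%) were transitions and 87 (30.0%) fell on a base of an EEF1A1 CpG, although CpG bases made up 60 of the coding positions (4.32%). Methylated CpG is known as the most mutable dinucleotide of mammalian genomes. Counted once each, there were 238 distinct substitutions, of which 212 were found in 1 member and 26 in at least 2. Of those 26, 20 lay on a parental CpG. EEF1A1P5 and EEF1A1P6 had a single substitution in common.

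**Figure D1:**
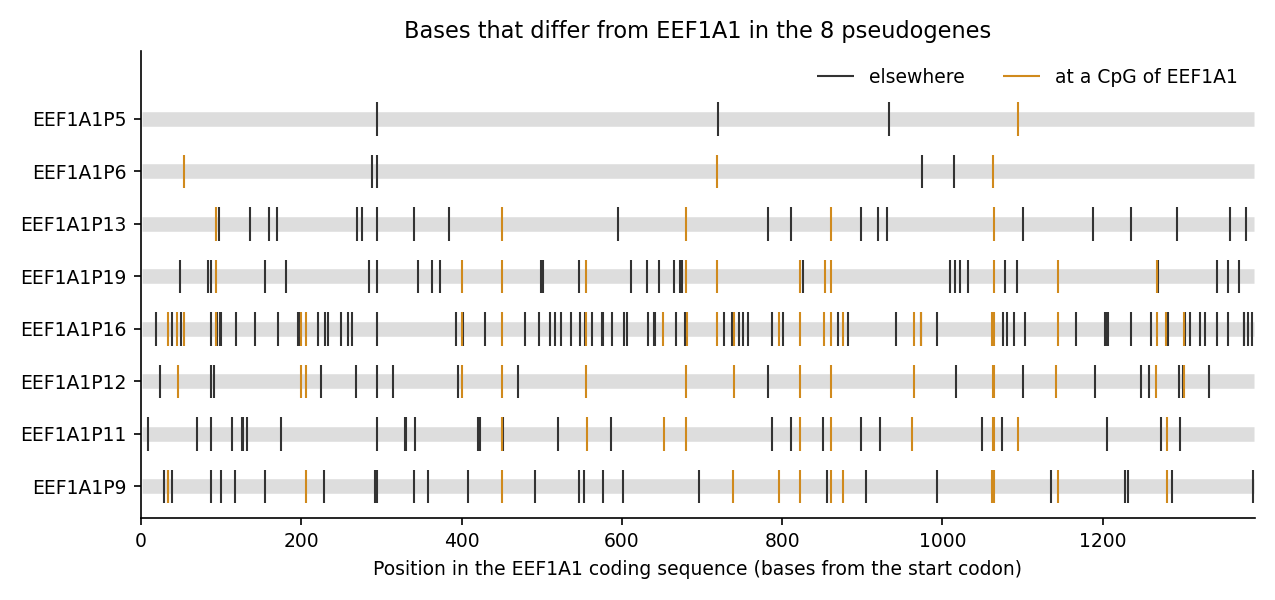
Substitutions relative to EEF1A1 (vertical ticks) along the coding sequence (x axis, bases from the start codon) in each of the 8 pseudogenes at or above 1 FPKM, with ticks on a CpG base of EEF1A1 in orange. EEF1A1P5 has 4 ticks, EEF1A1P6 has 7 and EEF1A1P16 has 100, and the tick at base 294 is present in all 8.

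A single substitution, T294C, was shared by all 8 members. Among all 49 members it was carried by 24 of the 43 that could be aligned at this base, and it is not at a CpG. It is shown in the 41 coding bases 274 to 314, with capitals again marking differences from EEF1A1.
EEF1A1: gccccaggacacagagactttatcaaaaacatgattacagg
EEF1A1P5 (chr9:133019759-133019799, plus strand): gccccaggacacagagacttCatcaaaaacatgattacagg
EEF1A1P6 (chr7:22511686-22511726, minus strand): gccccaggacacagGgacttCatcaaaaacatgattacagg
EEF1A1P13 (chr5:14653013-14653053, minus strand): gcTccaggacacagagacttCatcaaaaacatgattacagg
EEF1A1P16 (chr12:16990943-16990983, plus strand): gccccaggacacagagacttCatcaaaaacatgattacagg
EEF1A1P9 (chr4:105484965-105485005, plus strand): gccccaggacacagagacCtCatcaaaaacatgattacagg
In contrast, C450T and C1065T were each present in 6 of the 8, all but EEF1A1P5 and EEF1A1P6, and both lie on a CpG. They were carried by 36 of 42 and by 38 of 42 aligned members of the whole family. T87C was present in 5 of the 8 and in 28 of 37 aligned members. G861A was present in 5 of the 8 and in those 5 alone of the 43 aligned members. Another change of the same base, G861T, was carried by 33 of the 43, among them EEF1A1P16.

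Many copies matched the EEF1A1 mRNA up to a common point. In 26 of the 49 members the match to EEF1A1 ran to mRNA base 1747, which is 295 bases into the 3′ untranslated region of 2060 bases in the mRNA used as reference, and in 30 it ended within 10 bases of that point. Of the 23 annotated EEF1A1 transcripts, 14 ended within the same 10 bases. The match began within the first 10 bases of the mRNA in 33 members. Of the 8 members at or above 1 FPKM, 7 ended near base 1747, and in 5 at least 15 of the next 20 genomic bases were A. EEF1A1P16 was the exception among the 8, with its match ending at base 1679.

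How much of each member a 150-base read could tell apart from the parent was counted without the expression values. Of the 150-base words of EEF1A1P5, 51.6% occurred without mismatch in a spliced EEF1A1 transcript, and of those of EEF1A1P6, 39.5% did. No other member of the 49 had any such word. With words of 100 bases the shares were 69.0% and 57.4%, and 9 members had at least 1 shared word. The longest run identical to EEF1A1 was 425 bases in EEF1A1P5 and 322 bases in EEF1A1P6, against 98 to 147 bases in the remaining 6 of the 8. Between 99.6% and 100% of the 150-base words of those 6 occurred in no other annotated transcript, compared with 47.5% for EEF1A1P5 and 60.0% for EEF1A1P6. The values of these 2 members are therefore uncertain, since the sources used here do not give how reads matching several places were shared out. A read of EEF1A1 with a few sequencing errors can also match a copy, a source of signal that these word counts do not cover.

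The level of a member broadly followed its likeness to EEF1A1 (plot of identity against level). EEF1A1P5 had the highest mean, 851 FPKM, followed by EEF1A1P6 at 168 FPKM, EEF1A1P13 at 41.1 FPKM and EEF1A1P19 at 15.8 FPKM. EEF1A1P16, EEF1A1P12, EEF1A1P11 and EEF1A1P9 lay between 5.23 and 6.73 FPKM, and within each group of libraries the ranges of EEF1A1P12, EEF1A1P11 and EEF1A1P9 overlapped. Of the 8, 7 were more alike to EEF1A1 than any of the 41 other members, whose identity reached 94.2% at most, in EEF1A1P4. EEF1A1P16 departed from this order. It ranked 18th of 49 in identity, and the 10 members below 1 FPKM that were more alike to EEF1A1 than it had means of 0 to 0.735 FPKM. Spearman's rho between identity and mean level was 0.77 over the 49 members and 0.86 over the 35 with at least 90% of the coding sequence aligned. This is a description across genes that share the same 6 libraries and, in part, the same reads.

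**Figure D2:**
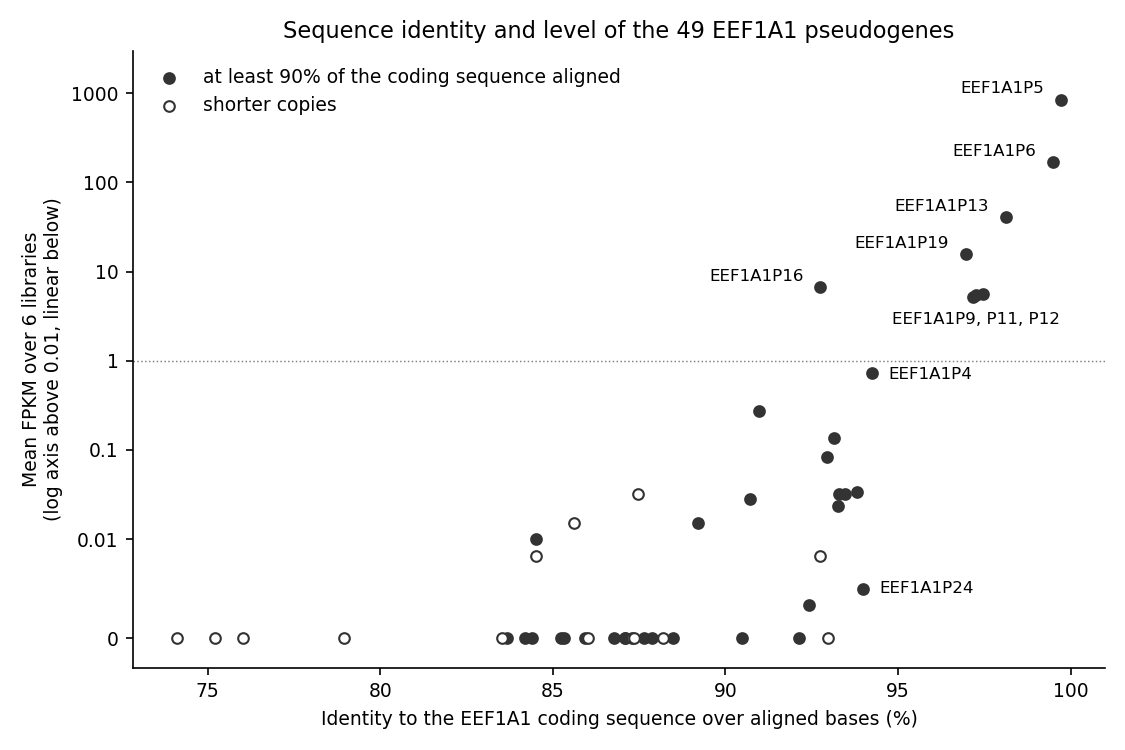
Mean FPKM over the 6 libraries (y axis, logarithmic above 0.01) against identity to the EEF1A1 coding sequence (x axis, percent of aligned bases) for the 49 EEF1A1 pseudogenes, with open circles for copies with less than 90% aligned and a dotted line at 1 FPKM. EEF1A1P5 and EEF1A1P6 sit at the upper right at 99.7% and 99.5% identity, and EEF1A1P16 stands above members of like identity at 92.7%.

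Of the 8, 2 lay inside other genes. EEF1A1P6 lay in an intron of STEAP1B and EEF1A1P19 in an intron of C5orf34, both on the strand of the host gene, so that reads of unspliced host RNA cannot be told apart from theirs. STEAP1B was at 0.04 FPKM or below in all 6 libraries. C5orf34 had 1.22 ± 0.289 FPKM in LV-NC and 1.81 ± 0.283 FPKM in LV-SNORA28 (SD, n = 3), a log2 difference of 0.35 (limma adjusted p = 0.14), while EEF1A1P19 was lower in LV-SNORA28. The remaining 6 of the 8 overlapped no other annotated gene. In the whole family, 13 members overlapped a gene on their own strand, 10 on the opposite strand only, and 26 overlapped none.

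The parent gene was examined first in the comparison of the groups. EEF1A1 had 3412.59, 3316.43 and 3321.89 FPKM in the 3 control libraries, compared with 2577.09, 2380.43 and 2298.03 FPKM under LV-SNORA28. No libraries of the 2 groups overlapped, and the LV-SNORA28 mean was 72.2% of the LV-NC mean. On the log2(FPKM + 1) scale, which understates changes of low genes, the fold change of EEF1A1 was -0.47 (SE 0.070; limma adjusted p = 0.0150). This call was kept with nuclear scaling, was lost with quantile normalization and depended on single libraries. With libraries scaled to the summed FPKM of nuclear genes, the log2 fold change was -0.50 with a limma adjusted p of 0.0139. With quantile normalization the log2 fold change was -0.0643 with a limma adjusted p of 0.56. That method sets values by rank, and EEF1A1 made up 0.743% to 1.02% of the summed FPKM. A gene this high can change in level with little change in its value there. Without LV-NC replicate 3, LV-SNORA28 replicate 2 or LV-SNORA28 replicate 3 the limma adjusted p was 0.0536, 0.0729 and 0.0656, respectively. Each library pooled the RNA of many cells, so a change in all cells and a change in a part of them cannot be told apart.

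EEF1A1P5, the copy with the intact frame, had 1122, 1010.21 and 991.29 FPKM in the 3 control libraries, compared with 638.77, 681.71 and 662.27 FPKM under LV-SNORA28. Every LV-NC library was above every LV-SNORA28 library, and the LV-SNORA28 mean was 63.5% of the LV-NC mean. EEF1A1P6 had 267.21, 183.98 and 243.26 FPKM in the 3 control libraries, compared with 129.53, 110.31 and 74.79 FPKM under LV-SNORA28. The groups of EEF1A1P6 did not overlap, but its fold change had the largest SE of the 8 members, with SDs of 42.8 and 27.8 FPKM around means of 231 and 105 FPKM.

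The other members at or above 1 FPKM stood further below their control level. EEF1A1P13 had 67.3, 68.91 and 51.26 FPKM in the 3 control libraries, compared with 21.04, 20.64 and 17.26 FPKM under LV-SNORA28. EEF1A1P19 had 25.05, 20.88 and 20.99 FPKM in the 3 control libraries, compared with 11.15, 9.39 and 7.37 FPKM under LV-SNORA28. In both, the lowest LV-NC library was well above the highest LV-SNORA28 library.

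EEF1A1P16, the diverged copy, had 13.14, 8.99 and 9.88 FPKM in the 3 control libraries, compared with 2.39, 2.98 and 3 FPKM under LV-SNORA28. EEF1A1P12 had 9.63, 7.72 and 8.25 FPKM in the 3 control libraries, compared with 2.56, 2.84 and 2.49 FPKM under LV-SNORA28. Neither pair of groups overlapped, and LV-NC replicate 1 was the highest library of both. EEF1A1P11 had 8.49, 8.13 and 7.04 FPKM in the 3 control libraries, compared with 3.22, 3.35 and 2.29 FPKM under LV-SNORA28. EEF1A1P9 had 8.58, 7.42 and 7.12 FPKM in the 3 control libraries, compared with 3.07, 3.09 and 2.09 FPKM under LV-SNORA28. Among the LV-SNORA28 libraries, replicate 3 was the lowest for 6 of the 8 members, all but EEF1A1P5 and EEF1A1P16.

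**Figure D3:**
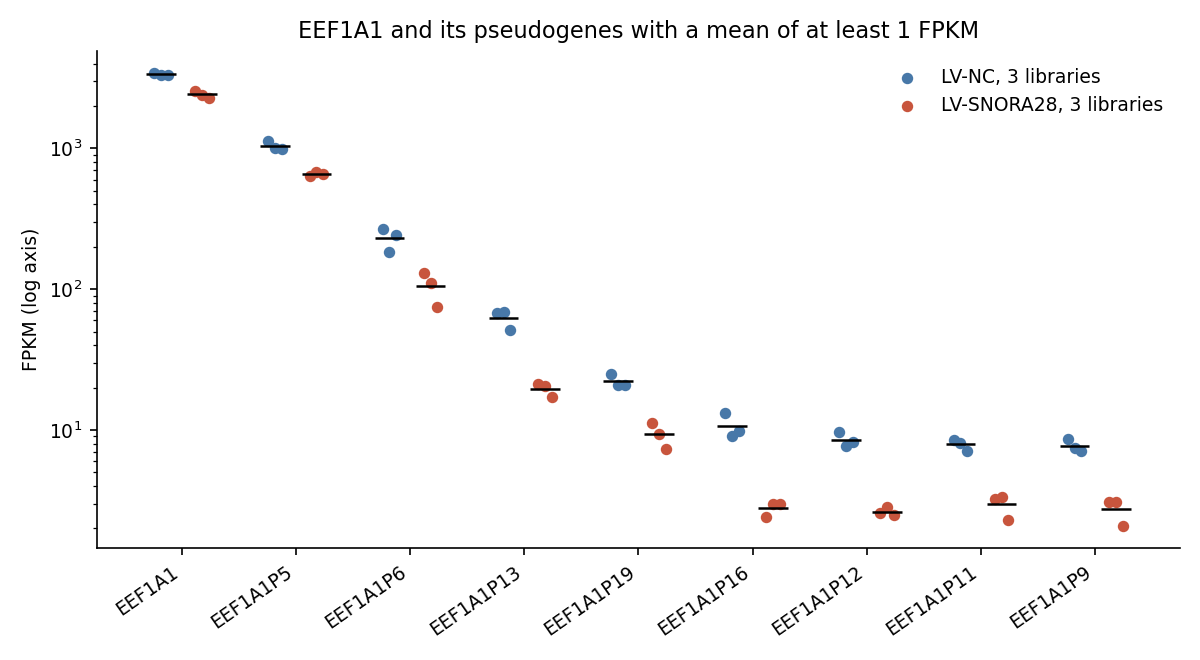
FPKM (y axis, logarithmic) of EEF1A1 and of its 8 pseudogenes at or above 1 FPKM in each LV-NC library (blue) and LV-SNORA28 library (red), with bars at the group means. In each of the 9 genes the 3 blue points lie above the 3 red points.

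The log2 fold changes of the 8 members ran from -1.61 (SE 0.13) in EEF1A1P13, -1.61 (SE 0.14) in EEF1A1P16 and -1.39 (SE 0.095) in EEF1A1P12 to -1.18 (SE 0.13) in EEF1A1P11, -1.15 (SE 0.23) in EEF1A1P6 and -0.65 (SE 0.071) in EEF1A1P5. EEF1A1P19 had -1.19 (SE 0.15) and EEF1A1P9 had -1.22 (SE 0.13). The median of the 8 was -1.21, beside 0.09 over the 12076 genes tested. All 8 had an adjusted p below 0.05 in limma and were lower in LV-SNORA28, where 2.1% of all genes tested were called lower and 6.81% higher. In all 8, every LV-NC value was above every LV-SNORA28 value, which held for 8.16% of all genes tested. Since the family was selected on this contrast, nothing is read from these counts. EEF1A1P6 was not called without LV-NC replicate 1, LV-NC replicate 3, LV-SNORA28 replicate 2 or LV-SNORA28 replicate 3, which left 7 members called in each of those fits.

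**Figure D4:**
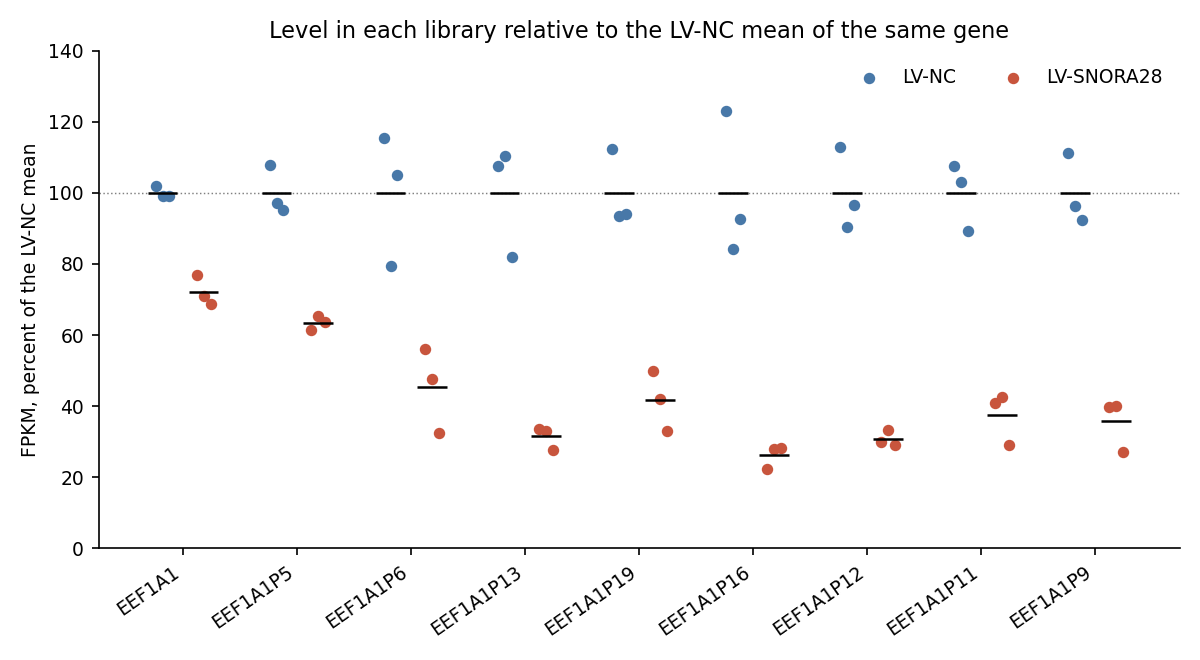
FPKM in each library as a percentage of the LV-NC mean of the same gene (y axis) for EEF1A1 and the 8 pseudogenes, with LV-NC in blue, LV-SNORA28 in red and bars at the group means. The LV-SNORA28 mean is 72.2% for EEF1A1, 63.5% for EEF1A1P5, 45.3% for EEF1A1P6 and 26.1% to 41.7% for the other 6.

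Relative to the LV-NC mean, the levels left in LV-SNORA28 were graded. They were 72.2% for EEF1A1, 63.5% for EEF1A1P5, 45.3% for EEF1A1P6, 41.7% for EEF1A1P19, 37.4% for EEF1A1P11, 35.7% for EEF1A1P9, 31.4% for EEF1A1P13, 30.8% for EEF1A1P12 and 26.1% for EEF1A1P16. The most diverged of the 8 thus had the smallest share left and the least diverged the largest. Between those ends the order of identity was not kept, as EEF1A1P13 at 98.1% identity was below EEF1A1P19 at 97.0%. Spearman's rho between identity and the share left was 0.57 over the 8 members, and between the LV-NC level and the share left it was 0.55. Level and identity go together in these genes, so their parts in the order cannot be told apart.

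Set against the parent within each library, which removes any scaling of whole libraries, the summed members were lower in LV-SNORA28. This uses the same values again and is no separate evidence. How reads matching both EEF1A1 and EEF1A1P5 or EEF1A1P6 were shared out is not given, which leaves these shares uncertain. All 49 members summed to 44.6%, 39.7% and 40.4% of the EEF1A1 FPKM in LV-NC and to 31.5%, 35.1% and 33.6% in LV-SNORA28. The means were 41.6% ± 2.67 and 33.4% ± 1.78 (SD, n = 3), a difference of -8.17 percentage points. EEF1A1P5 made up 73.6% to 85.7% of the summed FPKM, and the 8 members at or above 1 FPKM at least 99.855% of it. EEF1A1P5 alone was at 31.1% ± 1.60 of EEF1A1 in LV-NC and 27.4% ± 2.28 in LV-SNORA28 (SD, n = 3), with the lowest LV-NC library at 29.8% and the highest LV-SNORA28 library at 28.8%. Without EEF1A1P5 the sum lay between 9.29% and 11.8% of EEF1A1 in the LV-NC libraries and between 4.80% and 6.75% in the LV-SNORA28 libraries.

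Of the 17 members between 0 and 1 FPKM, EEF1A1P4, EEF1A1P25, EEF1A1P14 and EEF1A1P35 had the highest means. EEF1A1P4, at 94.2% identity and in an intron of AEBP2 on the opposite strand, had 1.21, 0.93 and 0.99 FPKM in the 3 control libraries, compared with 0.47, 0.44 and 0.37 FPKM under LV-SNORA28. Its groups did not overlap. EEF1A1P25, antisense in an intron of PIK3CB, had 0.5, 0.25 and 0.41 FPKM in the 3 control libraries, compared with 0.11, 0.27 and 0.11 FPKM under LV-SNORA28. EEF1A1P14 had 0.07, 0.24 and 0.2 FPKM in the 3 control libraries, compared with 0.09, 0.1 and 0.12 FPKM under LV-SNORA28. EEF1A1P35 had 0.14, 0.1 and 0.12 FPKM in the 3 control libraries, compared with 0.12, 0 and 0.02 FPKM under LV-SNORA28. In these last 3 the groups overlapped, and values this low may stand for very few reads. The other 13 reached at most 0.15 FPKM in any library, with the LV-NC mean higher in 7 and the LV-SNORA28 mean higher in 6. With the filter removed 25 members were fitted, and their median log2 fold change was -0.08.

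The genes of the elongation machinery that EEF1A1 serves were set beside the family. This list held 18 genes of the eEF1 complex, of elongation and of eEF1A methylation, of which EEF1AKMT3, an eEF1A lysine methyltransferase, was below the filter at a mean of 0.923 FPKM. Of the 17 tested, limma called EEF1A1 lower and none higher, against 4 lower and 2 higher at an unadjusted p below 0.05, and the median log2 fold change was -0.03. Over all 12076 genes tested, limma called 254 lower and 822 higher. At an unadjusted p below 0.05, 734 of these were lower and 2651 higher. EEF1A2, the second eEF1A gene, had 94.6 ± 10.8 FPKM in LV-NC and 82.5 ± 7.21 FPKM in LV-SNORA28 (SD, n = 3), a log2 difference of -0.19 (limma adjusted p = 0.27). EEF1B2, the nucleotide exchange subunit eEF1Bα, had 326 ± 17.6 FPKM in LV-NC and 276 ± 7.02 FPKM in LV-SNORA28 (SD, n = 3). Its groups did not overlap, and the log2 difference was -0.24 (limma adjusted p = 0.0633). EEF1G, a structural subunit of the complex, varied between 325.68 and 717.4 FPKM, a log2 difference of -0.43 (limma adjusted p = 0.35). EEF2, the translocation factor, had a log2 fold change of -0.12 with an adjusted p of 0.32 in limma. EEF1E1, a scaffold protein of the aminoacyl-tRNA synthetase complex, had 0.34 with an adjusted p of 0.0517, and EEF1AKMT4, which methylates eEF1A, had -0.38 with an adjusted p of 0.0513, both in limma.

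None of the remaining genes of the list was called. EIF5A, the hypusine-containing factor, had a log2 fold change of 0.26 and the release factor GSPT1 also had 0.26. EEFSEC, which delivers selenocysteinyl-tRNA, had -0.34 with an adjusted p of 0.0689 in limma and groups that did not overlap. VARS1, EEF1D, EEF2K, HBS1L, METTL13, EEF1AKMT1 and EEF1AKMT2 had log2 fold changes between -0.11 and 0.14.

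Pseudogenes of the other elongation factor genes were mostly too low to compare. Of 25 pseudogenes of EEF1B2, EEF1D, EEF1E1 and EEF1G, 2 passed the filter. EEF1B2P3 had 64.26, 60.58 and 56.54 FPKM in the 3 control libraries, compared with 49.6, 45.61 and 45.3 FPKM under LV-SNORA28, a log2 difference of -0.36 (limma adjusted p = 0.0308). EEF1B2P6 had 2.00 ± 0.135 FPKM in LV-NC and 1.66 ± 0.162 FPKM in LV-SNORA28 (SD, n = 3), a log2 difference of -0.18 (limma adjusted p = 0.24).

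Of the processed pseudogenes outside the family, 528 passed the filter, and limma called 84 (15.9%) lower and 9 higher. Their median log2 fold change was -0.13. Among them, 34 of 109 pseudogenes of ribosomal protein RPL genes and 21 of 56 of RPS genes were called lower, with medians of -0.32 and -0.44. These 2 lists were added after their values were seen. The protein-coding RPL and RPS genes had medians of -0.15 over 49 genes and -0.13 over 31 genes. Of these, 2 and 1 were called lower, and 2 and 0 higher. Over all genes tested, 2.1% were called lower and 6.81% higher. Of the 528, 66 had a log2 fold change below that of EEF1A1P5. Ranked from the lowest fold change among all 12076 genes tested, EEF1A1P13 was at rank 10, EEF1A1P16 at 11, EEF1A1P12 at 20, EEF1A1P9 at 31, EEF1A1P19 at 32, EEF1A1P11 at 33, EEF1A1P6 at 36, EEF1A1P5 at 152 and EEF1A1 at 301. Whether reads of the parent mRNAs or the lower mitochondrial share in LV-SNORA28 had a part in these values was not tested as a cause. In a fit scaled to the summed FPKM of nuclear genes, the 8 members had a median of -1.23, beside -1.21 without that scaling. EEF1A1 had a log2 fold change of -0.50 in that fit, beside -0.47.

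**Figure D5:**
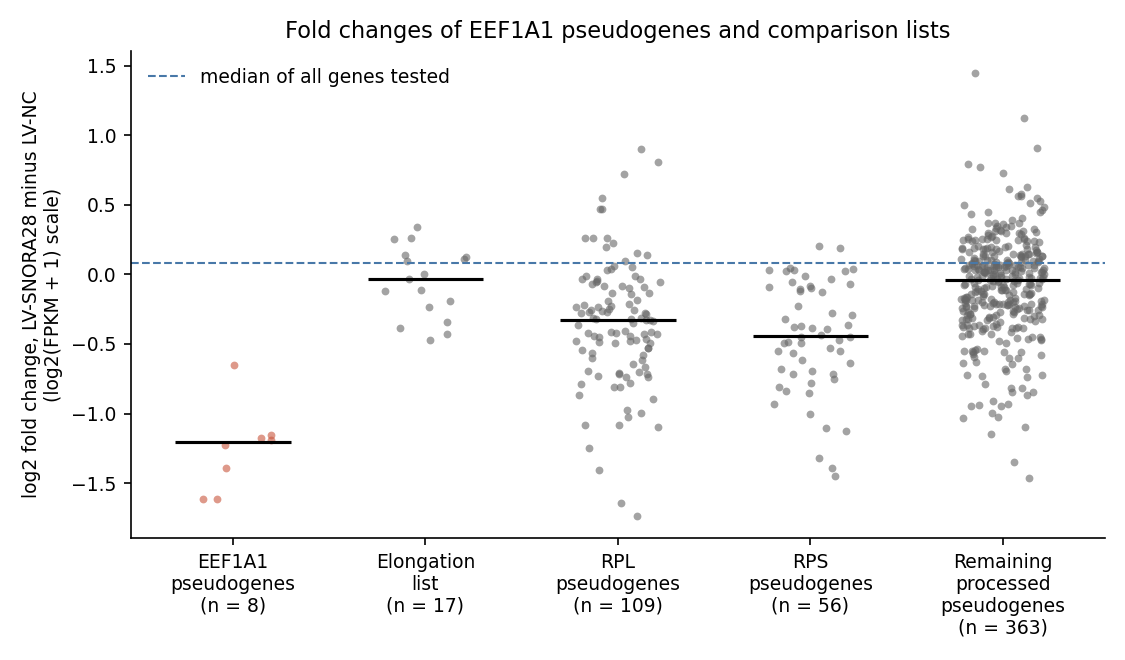
Log2 fold change, LV-SNORA28 minus LV-NC, on the log2(FPKM + 1) scale (y axis) of the 8 EEF1A1 pseudogenes, the 17 genes tested of the elongation list, 109 RPL, 56 RPS and 363 remaining processed pseudogenes (points), with bars at the medians and a dashed line at the median of all genes tested. The medians are -1.21, -0.03, -0.32, -0.44 and -0.04, and the dashed line is at 0.09.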

How the data were processed

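RNA was measured in 6 libraries of HCT116 cells, 3 per group, grouped by their titles. Each library had 1 file, in which the authors deposited FPKM for 60612 Ensembl genes. The submitters' processing notes name cutadapt 1.9, HISAT2 2.2.1, StringTie 2.1.6, DESeq2, edgeR and build hg38. The annotation release and the treatment of reads with several matches are not given in the sources used here. Symbols, biotypes and positions came from GENCODE release 44, which named 60401 genes.

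Values were transformed to log2(FPKM + 1) and fitted with limma 3.58.1 in R 4.3.3 (lmFit, eBayes with trend) over the 12076 genes that averaged 1 FPKM or more. P-values were adjusted by Benjamini-Hochberg over all of them, with a threshold of 0.05. The fit was tested on data simulated from its own fitted means and spreads, which checks the computation and not the calls made here. Member sequences were the GENCODE transcript models, aligned to the EEF1A1 coding sequence with Biopython 1.88. The match to the EEF1A1 mRNA was found with BLAST+ 2.17.0 in hg38, over each member and 4000 bases on both sides.

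Members and lists were chosen with earlier results of these data known. Named were EEF1A1, the 12 members of highest mean, the 3 members of lowest and the 3 of highest fold change, the elongation list and pseudogenes of other elongation factors. Alternatives were other pseudocounts, filters, scalings, word lengths, a replicate block and leaving out each library.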

Additional observations from a re-analysis of the deposited data

How the results depend on the processing

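Over the 13 alternatives to the fit, 7 or 8 members were called lower and none higher. The fits called 0.278% of all genes lower without the filter, 3.48% at a mean of at least 5 FPKM, 3.11% with quantile normalization and 0.729% to 1.13% with a library left out. The share was 2.1% with a pseudocount of 0.1, 2.18% with nuclear scaling, 1.86% without trend and 1.09% with the replicate block. Nothing is read from the members' counts, as the family was chosen with this contrast known. Of the 8 members at or above 1 FPKM, EEF1A1P6 was the one not called in the fits that gave 7. The median log2 fold change of the members was -1.44 with a pseudocount of 0.1 and -0.0819 without the filter, when 25 members entered, and it ran from -1.32 to -1.07 with a library left out. None of the 104 values of single members under these alternatives changed sign, and 99 moved by less than 1 SD of the libraries. Much of this was fixed in advance. In the 8 members every LV-NC value was above every LV-SNORA28 value, so a left-out library or another pseudocount could not change a sign. Other filters, a fit without trend and the replicate block cannot move a fold change, so nothing is read from these counts. EEF1A1 had a log2 fold change of -0.47 (limma adjusted p = 0.17) without the filter and of -0.0643 (limma adjusted p = 0.56) with quantile normalization. With nuclear scaling it was -0.50 (limma adjusted p = 0.0139). It ran from -0.52 to -0.44 with a library left out (limma adjusted p 0.0340 to 0.0729). Of the elongation list, 0 genes were called without the filter and between 0 and 2 with a library left out. At a mean of at least 5 FPKM 3 were called, EEF1A1 and EEF1AKMT4 lower and EEF1E1 higher. Quantile normalization gave 2, EEF1AKMT4 and EEFSEC, both lower. Nuclear scaling gave 2, EEF1A1 and EEF1AKMT4, both lower. The members' summed share of EEF1A1 differed by -9.09 to -6.64 percentage points with a library left out. The number of members with at least 50% of their words in EEF1A1 was 1 at 150 bases and 2 at both 100 and 75 bases.

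With the replicate number as a block, 7 members were called lower with a median of -1.21, where 1.09% of all genes were called lower. Calls over all genes, higher and lower together, went from 1076 to 510. Deviations of same-numbered libraries correlated at -0.04, 0.09 and 0.01, so the numbers were not taken to pair the libraries. With 3 libraries per group and unknown read totals, values below 1 FPKM have no stated precision.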
